A study of Aspergillus nidulans with 4 samples.

Results

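The genes described here carry proteins from the endoplasmic reticulum (ER) through the Golgi apparatus to the cell surface of the filamentous fungus Aspergillus nidulans. They were taken by annotation, as the genes whose function text names ER to Golgi, COPII, COPI, exocyst, Golgi to plasma membrane or intra-Golgi, without the word proteasom and without AN2062, AN7436 and AN3592. The rule found 51 of the 10930 genes in the files. One of them, AN7090, is annotated as a Ty1-copia transposon-related reading frame and matched only because copia contains the letters of COPI. It is described on its own, and the other 50 genes are called the secretory traffic genes. No expression value entered the rule.

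RNA of strain AN1404, which lacks mpkA, was compared with RNA of its parental strain AN1405. The question was which other functions the MpkA kinase may have in cells that were not stressed. MpkA is a mitogen-activated protein kinase (MAP kinase) that acts in cell wall integrity signalling. Both strains were grown as mycelium in rich medium at pH 3.3 and 28 °C, with a seed culture of 12 hours and a main culture of about 20 hours, up to late exponential growth. Each strain had 2 libraries, the deletion strain being a single strain, and no other allele, no complemented strain and no added agent is named in the labels.

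In the deletion libraries mpkA itself had 6 and 3 reads, against 6993 and 6437 in the parental ones. Reads on genes numbered 34871842 and 33027324 in the parental libraries, and 31674270 and 31609185 were found for the deletion strain. Reads per library were recovered from the authors' means, and the libraries are called a and b. Normalized reads are reads divided by the library's size factor, a number close to 1 that puts the libraries on a common scale. The size factors differed more between the strains, in relative terms, than the reads on genes did. They thus correct for more than depth alone. The study text speaks of biological and technical replicates without assigning them to libraries. The p-values thus set the difference between strains only against the spread of these libraries, and that spread may be technical. As markers of spores or of conidiophores, which bear them, 6 conidial genes were measured among the hyphae. Of these, 4 were lower in the deletion strain and 1, yA, was higher. Their summed level was 826 and 784 normalized reads in the deletion libraries against 1849 and 1730 in the parental libraries, and none of the 6 was at 0. The gap in the sum was about that of abaA, at 127 and 125 against 1153 and 1120. The other 5 summed to 699 and 659 against 696 and 610. Among these, brlA, wA and rodA were also lower. In the sum they were offset by yA, at 429 and 408 against 104 and 93.2. Whether these marker differences have a part in the results below was not tested. In bulk RNA, fewer cells of a type and less RNA per cell cannot be told apart.

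Secreted and membrane proteins leave the ER in vesicles coated by COPII, which forms when the small GTPase Sar1 recruits the Sec23-Sec24 and then the Sec13-Sec31 layer. COPI vesicles return escaped ER proteins and recycled machinery from the Golgi. SNARE proteins and Rab GTPases bring each vesicle to its target membrane, and the exocyst tethers secretory vesicles at the plasma membrane. In filamentous fungi this traffic runs mainly to the hyphal tip, where wall material and secreted enzymes are delivered. Most roles given below are those of orthologs in other species, since the function text rests on orthology, and it does not say which species.

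Most secretory traffic genes were somewhat higher in the deletion strain. In the authors' deposited table, 39 of the 50 genes rose (78%) and 4 fell (8%) at a q-value under 0.05, and 7 did not pass. Among all 10505 genes tested there, 72.2% passed, 36.3% as higher and 35.9% as lower. The rise was small for most. In the same authors' deposited table, 11 of the 50 genes (22%) were at least 1.5-fold higher, against 18.6% of all genes tested, so large rises were about as frequent as elsewhere. Only AN8768 was at least 1.5-fold lower, and 25.4% of all genes tested were. The median log2 change of the 50 genes was 0.36, against -0.02 over all genes tested, and 41 of the 50 (82.0%) lay above that all-gene median.

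The libraries themselves showed the same picture. Both deletion libraries lay above both parental libraries for 40 of the 50 genes (80%), against 43.0% of all genes tested. Both lay below for 7 genes, against 44.7% of all genes tested, and the strains overlapped for AN0560, AN11775 and AN5868. The libraries of a strain were close, with a median absolute log2 difference over these genes of 0.0438 between the parental and 0.0214 between the deletion libraries. The widest gaps were 0.19 for AN4495 between the parental and 0.13 for AN4165 between the deletion libraries. The fewest reads for any of the 50 genes in any library was 267, so counting error was small beside most of these changes. Together the 50 genes took 0.462% and 0.463% of the reads in the parental libraries and 0.509% and 0.506% in the deletion libraries, and on this scale too the strains did not overlap.

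**Figure D1:**
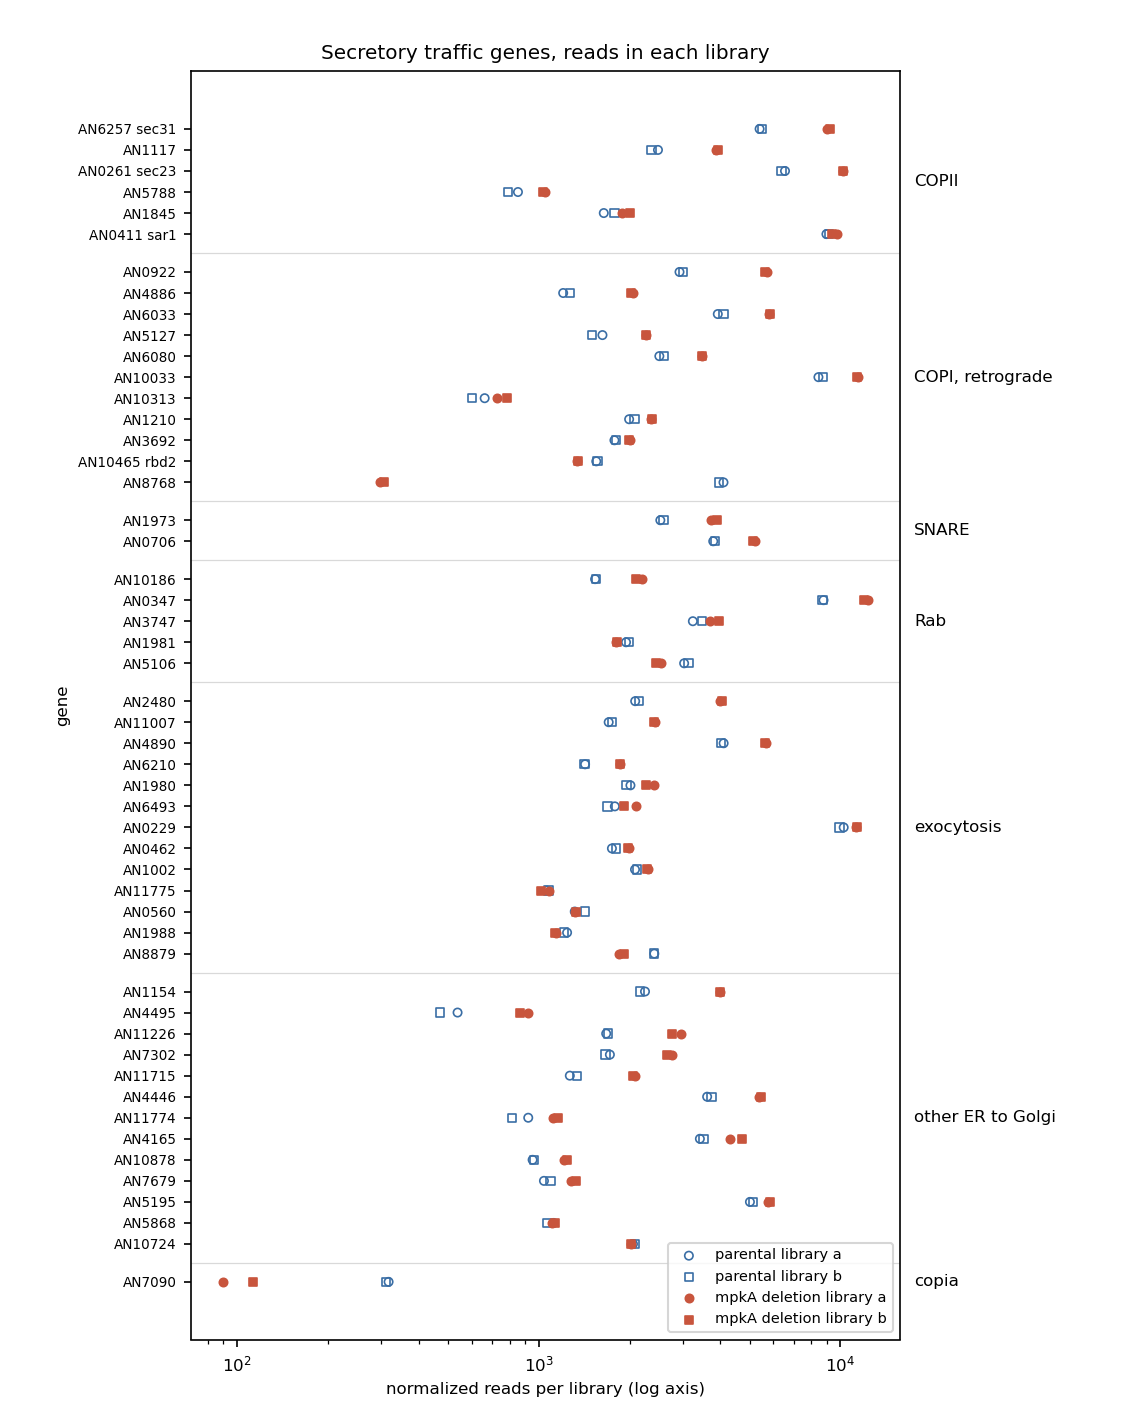
Normalized reads of each gene of the rule in the 4 libraries, on a log axis, grouped by role and ordered within a role by change. Filled red symbols are the deletion and open blue symbols the parental libraries. For 40 genes both red symbols lie to the right of both blue ones, and AN8768 and AN7090 stand far to the left in the deletion strain.

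The size of the count depended on how the libraries were scaled. When edgeR was run on the recovered reads with library totals in place of TMM, the median of all genes tested moved to -0.21 and that of the 50 genes to 0.15. Then 27 of the 50 (54%) were called higher and 12 lower, at an adjusted p under 0.05, against 32.8% and 53.5% of the 9338 genes in that fit. Of the 39 genes that rose, 27 stayed higher under that scaling, 11 did not pass and AN1002 was lower. The genes not passing in the authors' deposited table (sar1, AN0560, AN10724, AN11775, AN1981, AN1988 and AN5868) were all called lower under it. All 11 genes with a rise of at least 1.5-fold stayed higher, the smallest log2 change among them being 0.44 for sec23. The change of scale moves all genes alike, so it cannot alter how far the 50 genes lie from the median of all genes, but it turned the sign of 11 small changes.

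**Figure D2:**
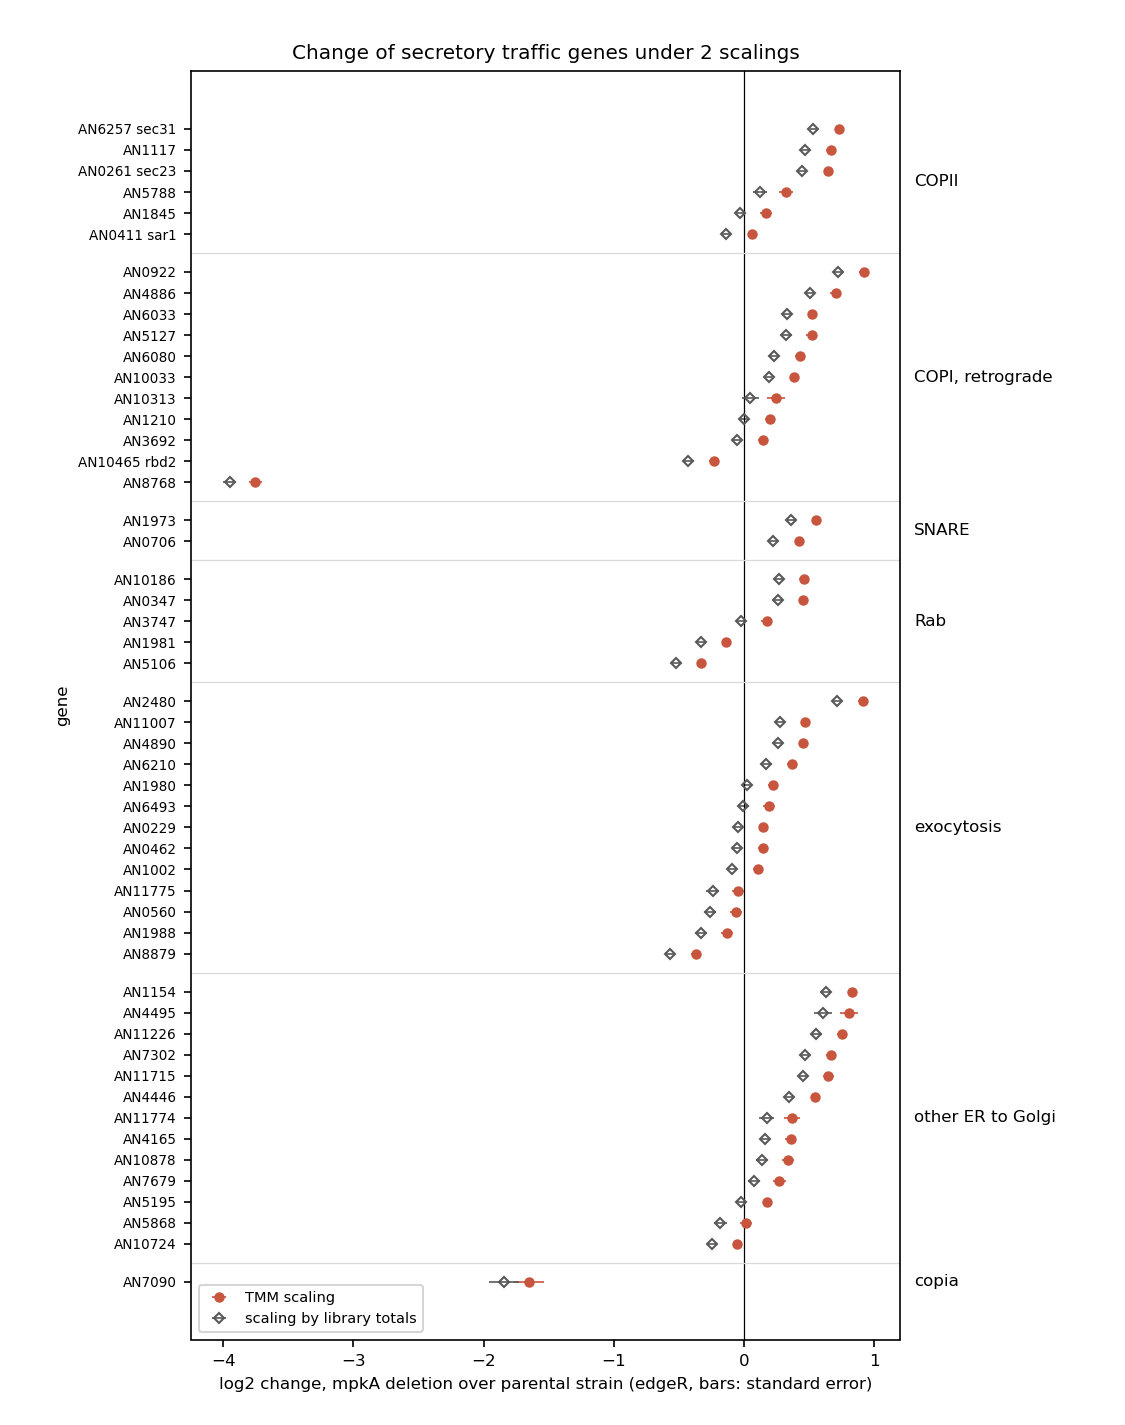
The log2 change of each gene, deletion over parental strain, from edgeR with TMM scaling (red) and with library totals (grey diamonds), with bars of 1 standard error from 2 libraries per strain. The grey values lie about 0.20 to the left of the red ones throughout, and 11 genes cross the zero line between the scalings.

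The counts in each role group below stand beside 36.3% higher and 35.9% lower over all genes tested. On library totals those all-gene shares were 32.8% and 53.5%. The COPII group held 6 genes, of which 5 rose (83.3%) and sar1 did not pass, with a median log2 change of 0.50. On library totals the median was 0.28, with 4 genes higher and sar1 lower. The gene sec31 (AN6257, positions 738730 to 743473 on the minus strand in the files, which name neither chromosome nor build) encodes a part of the outer COPII layer. It had 9051 and 9214 normalized reads in the deletion libraries, against 5397 and 5492 in the parental ones. Both deletion values stood clear of both parental values, and the gene was 1.68-fold higher in the authors' deposited table (q = 2.18e-79). The edgeR log2 change of sec31 was 0.73 with a standard error of 0.03.

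The gene sec23 (AN0261, positions 4113086 to 4115907, minus strand) encodes a component of the inner COPII layer, which stimulates GTP hydrolysis by Sar1. It had 10204 and 10227 normalized reads in the deletion libraries against 6552 and 6387, with no overlap, and was 1.58-fold higher in the authors' deposited table (q = 1.08e-65). The gene sar1 (AN0411, positions 3637814 to 3639560, plus strand), the GTPase that starts coat assembly, had 9777 and 9357 normalized reads against 8989 and 9160. The strains did not overlap, but the difference of 1.05-fold missed the threshold in the authors' deposited table (q = 0.0548), and its sign turned on library totals, to -0.14. Of sec31, sec23 and sar1, the rise was thus found in sec31 and sec23 but not in sar1. The coat gene sec13 (AN4317), which the rule misses, was 2.29-fold higher in the authors' deposited table and is described further below.

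Of the COPII adaptors, which load cargo into the coat, AN1117 had 3865 and 3923 normalized reads against 2484 and 2364 and was 1.61-fold higher in the authors' deposited table (q = 1.44e-43). A second gene annotated with COPII adaptor activity, AN5788, had 1046 and 1034 against 853 and 792 and was 1.26-fold higher there, in the authors' deposited table, with q = 2.19e-05. AN1845 is annotated as an ER chaperone that packages amino acid permeases into COPII vesicles. It had 1888 and 2006 normalized reads against 1643 and 1782, a narrow gap (1.14-fold higher in the authors' deposited table, q = 0.015), and its sign turned to -0.03 on library totals. AN1845 overlaps AN1846 on the opposite strand by 132 bp, and the library kit does not mark the strand, so reads in that stretch belong to either gene.

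The group of COPI, ARF cycle and retrograde genes held 11 members, with a median log2 change of 0.40, or 0.19 on library totals. It had 9 genes that rose (81.8%) and 2 that fell (18.2%), against 36.3% and 35.9% of all genes tested. It was formed from words in the function text, and 5 of its genes (AN10033, AN1210, AN3692, rbd2 and AN8768) are annotated for COPI-coated vesicles by location only. The largest rise among all 50 genes was that of AN0922 (positions 2067745 to 2069700, plus strand), annotated for the COPI vesicle coat and for transport in both directions between ER and Golgi. It had 5696 and 5641 normalized reads in the deletion libraries, against 2928 and 3001 in the parental ones, and the authors' deposited table gives a 1.91-fold rise (q = 1.58e-95). The edgeR log2 change of AN0922 was 0.92 with a standard error of 0.03. The other gene annotated for the COPI vesicle coat, AN6080, had 3467 and 3486 normalized reads against 2510 and 2597 and was 1.36-fold higher in the authors' deposited table (q = 6.51e-19). Both genes also passed as higher on library totals, with log2 changes of 0.72 and 0.23.

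AN6033, annotated with GTPase activator activity in the coating of Golgi vesicles by COPI, had 5815 and 5847 normalized reads against 3922 and 4093. In the authors' deposited table it was 1.45-fold higher (q = 9.98e-36). AN5127, a SNAP receptor of the retrograde route, had 2261 and 2276 against 1626 and 1498 and was likewise 1.45-fold higher in the authors' deposited table (q = 6.18e-20). AN4886, annotated for the Golgi transport complex, a tether of vesicles that recycle within the Golgi, had 2056 and 2016 against 1205 and 1269. It was 1.65-fold higher in the authors' deposited table (q = 6.26e-31). AN4886 shares 570 bp of its 2727 bp with AN4887 on the opposite strand, whose mean was 3401 normalized reads in the deletion and 3502 in the parental strain.

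The gene with the highest level per length of all 50 was AN10033, an integral Golgi membrane protein placed in COPI-coated vesicles. It had 11450 and 11325 normalized reads against 8457 and 8772, and was 1.32-fold higher in the authors' deposited table (q = 2.65e-27). AN10313, AN1210 and AN3692 rose by 1.20-, 1.16- and 1.12-fold in the authors' deposited table, and none of the 3 passed on library totals, where AN1210 and AN3692 turned just below zero. The gene rbd2 (AN10465) had 1339 and 1349 normalized reads in the deletion libraries against 1551 and 1567, with no overlap, and was reduced 1.16-fold in the authors' deposited table (q = 0.0014).

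AN8768 stood apart from every other secretory traffic gene. It lies at positions 2879033 to 2881081 on the minus strand and is annotated only by location, in COPI-coated and clathrin-coated vesicles, so no molecular role can be given. It had 267 and 275 reads in the deletion libraries, against 4706 and 4281 in the parental ones, which is 297 and 308 against 4096 and 3949 normalized reads. The strains were far apart and the libraries of each close together. The gene was reduced 13.3-fold in the authors' deposited table, where its q-value is listed as 0, and the edgeR log2 change was -3.75 with a standard error of 0.05. The next lowest of the 50 genes, AN8879, had a log2 change of -0.35 in the authors' deposited table.

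**Figure D3:**
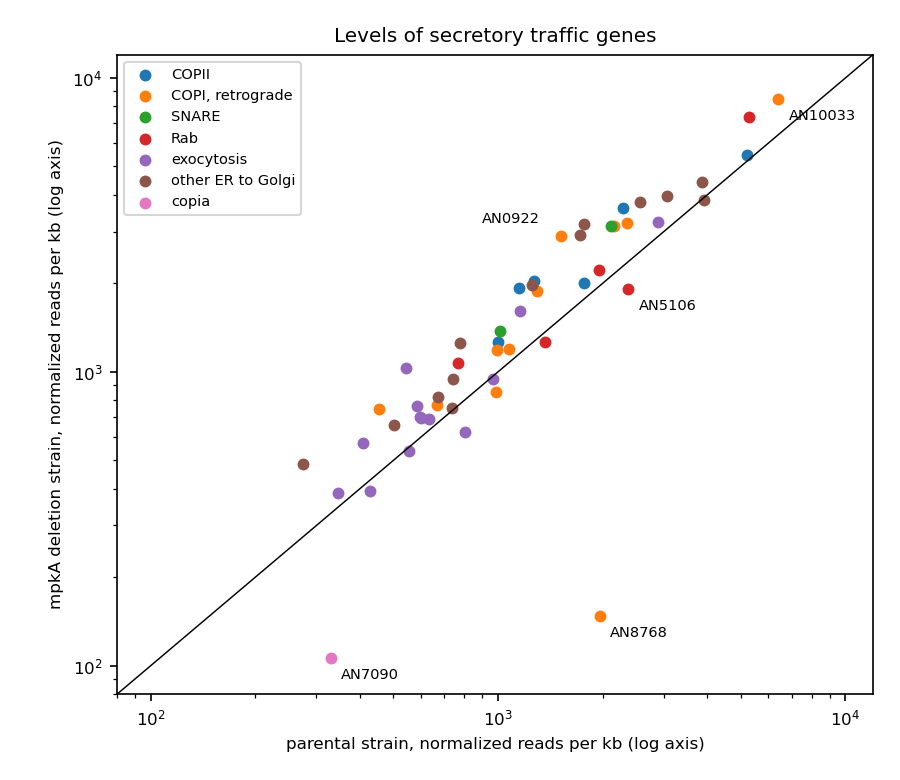
Mean normalized reads per kb of gene length in the parental (horizontal) and deletion strain (vertical), both log axes, 1 point per gene, coloured by role. The line marks equal levels. Most points lie a little above it over the whole range of levels, and AN8768 lies far below, at 147 per kb in the deletion and 1963 per kb in the parental strain.

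Both genes in the SNARE group rose and passed on either scaling, with a median log2 change of 0.51. AN1973, a SNAP receptor of transport within the Golgi and to the vacuole, had 3712 and 3904 normalized reads against 2530 and 2593 and was 1.49-fold higher in the authors' deposited table (q = 2.90e-31). It overlaps AN10241 on the opposite strand by 85 bp. AN0706, annotated for SNARE complex assembly and docking at the Golgi, had 5199 and 5142 against 3788 and 3838. It was 1.36-fold higher in the authors' deposited table (q = 5.65e-23).

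Of 5 genes annotated for GTPases, Rab proteins or their partners, 3 rose (60%), 1 fell and 1 did not pass. Over all genes tested, 36.3% rose. The median log2 change of 0.19 turned to -0.02 on library totals, where 2 were higher (40%) and 2 lower (40%). The shares over all genes in that fit were 32.8% and 53.5%, so the share of higher genes was near that of all genes. AN0347, a putative GTPase of transport within the Golgi, had the highest level per length in this group and the second highest of the 50 genes. It had 12327 and 11993 normalized reads against 8791 and 8726, and was 1.39-fold higher in the authors' deposited table (q = 1.35e-37). AN5106, a putative GTPase of ER to Golgi transport, went the other way. It had 2539 and 2439 normalized reads against 3034 and 3137 and was reduced 1.24-fold in the authors' deposited table (q = 2.67e-09), without overlap between strains. The gene overlaps AN5105 by 106 bp on the opposite strand.

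AN10186, annotated as binding GTPases at the Golgi membrane, had 2200 and 2103 normalized reads against 1537 and 1546 and was 1.40-fold higher in the authors' deposited table (q = 6.95e-16). A pair of genes is annotated with the prenyltransferase activity that attaches the lipid by which Rab proteins hold on to membranes. AN3747 was 1.14-fold higher in the authors' deposited table (q = 0.006), with a sign that turned to -0.02 on library totals. The other, AN1981, had 1805 and 1818 normalized reads against 1946 and 1988 and missed the threshold in the authors' deposited table (q = 0.0574). It was called lower by edgeR with TMM, at a log2 change of -0.14, and with library totals, at -0.33.

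The exocyst and exocytosis group was the largest with an assigned role, at 13 genes, and had the smallest median change of the role groups, 0.17 on the log2 scale. Of its genes 9 rose (69.2%), AN8879 fell (7.7%) and 3 did not pass, against 36.3% higher and 35.9% lower over all genes tested. On library totals the median turned to -0.05, with 4 genes higher (30.8%) and 5 lower (38.5%). Over all genes in that fit the shares were 32.8% and 53.5%. The 6 genes whose text names the exocyst changed little. Those called higher were AN6210 at 1.31-fold, AN6493 at 1.16-fold, AN0462 at 1.12-fold and AN1002 at 1.09-fold in the authors' deposited table, and of these AN6493, AN0462 and AN1002 turned below zero on library totals. AN0462 is similar to Saccharomyces cerevisiae Sec3p, a landmark subunit of the complex. It had 1986 and 1980 normalized reads against 1748 and 1801. AN6210, annotated for exocyst assembly, had 1858 and 1855 against 1424 and 1418, and it passed on library totals as well.

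The remaining exocyst genes, AN0560 and AN1988, did not pass in the authors' deposited table, with q = 0.5733 and q = 0.1308. AN0560 had 1321 and 1329 normalized reads against 1316 and 1421, and the strains overlapped. AN1988 had 1138 and 1131 against 1241 and 1215, and it was called lower by edgeR with TMM at a log2 change of -0.13. AN1988 shares 455 bp of its 2879 bp with AN1987 on the opposite strand, which had a mean of 748 normalized reads in the deletion and 281 in the parental strain, and the reads of the shared stretch cannot be told apart. Shorter overlaps with a gene on the opposite strand were present for AN0560 (71 bp), AN1002 (113 bp) and AN6493 (19 bp). The gene overlapping AN0560 had a mean of 1785 normalized reads in the deletion and 624 in the parental strain. The one overlapping AN1002 had 1136 and 3775.

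Genes of this group whose text does not name the exocyst moved more widely. Whether some of them encode exocyst subunits was not checked. AN2480 (positions 4072284 to 4076190, minus strand) had 4001 and 4061 normalized reads in the deletion libraries against 2087 and 2144. The strains were clearly separated, at 1.91-fold in the authors' deposited table (q = 1.73e-77), the second largest rise of the 50 genes. AN11007 was 1.40-fold and AN4890 was 1.39-fold higher in the authors' deposited table, both annotated for exocytosis. AN8879, also annotated for exocytosis and cell separation, had 1848 and 1922 against 2416 and 2404 and was reduced 1.28-fold in the authors' deposited table (q = 4.34e-10). AN0229, with the highest level per length in this group, had 11308 and 11329 normalized reads against 10255 and 9931. Its rise of 1.12-fold in the authors' deposited table turned to a log2 change of -0.05 on library totals. AN1980, annotated for regulation of exocytosis, was 1.18-fold higher in the authors' deposited table and did not pass on library totals. AN11775, a Golgi membrane protein of routes to endosome and plasma membrane, had 1083 and 1017 normalized reads against 1063 and 1078, with overlapping strains (q = 0.781 in the authors' deposited table).

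The last 13 genes are annotated for ER to Golgi or intra-Golgi transport and matched none of the role words of the groups above. In this group 11 rose (84.6%), against 36.3% of all genes tested, and AN5868 and AN10724 did not pass. The median log2 change was 0.39, and 0.17 on library totals. This group held 5 of the 11 genes with a rise of at least 1.5-fold. The text of 3 genes names retention of proteins in the ER lumen, the retrieval of resident proteins that have escaped. AN11226, annotated as binding the HDEL signal of such proteins, had 2967 and 2771 normalized reads against 1673 and 1694. It was 1.70-fold higher in the authors' deposited table (q = 1.58e-33).

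AN1154, a vesicle protein with the same retention term, had 3974 and 3978 normalized reads against 2250 and 2170 and was 1.80-fold higher in the authors' deposited table (q = 6.46e-65). AN4446 was the third, with 5388 and 5449 against 3616 and 3735, or 1.47-fold in the authors' deposited table (q = 1.25e-36). For all 3 retention genes the strains were separated and the log2 change on library totals stayed positive, at 0.55, 0.63 and 0.35.

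AN4495, annotated for ER to Golgi transport at the ER, had the lowest level per length of the 50 genes in the parental strain. It had 924 and 864 normalized reads against 538 and 471, a 1.77-fold rise in the authors' deposited table (q = 4.24e-18), and the widest gap between parental libraries. Among membrane proteins of ER to Golgi vesicles, AN7302 had 2770 and 2658 against 1721 and 1663. It was 1.60-fold higher in the authors' deposited table (q = 2.37e-34). AN11715 had 2078 and 2049 against 1267 and 1336 and was 1.59-fold higher in the authors' deposited table (q = 3.05e-27).

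Others of these membrane and vesicle proteins moved less. AN4165 and AN7679 were 1.30- and 1.22-fold higher in the authors' deposited table, and AN7679 did not pass on library totals. AN7679 shares 46 bp with AN7680 on the opposite strand, whose mean was 1972 normalized reads in the deletion and 1036 in the parental strain. AN5195, annotated with receptor activity in ER to Golgi vesicles and the highest in level of this group, had 5751 and 5849 normalized reads against 5013 and 5139. Its 1.14-fold rise in the authors' deposited table (q = 7.39e-06) turned to -0.02 on the log2 scale on library totals. AN11774, annotated for the Golgi transport complex, and AN10878, for vesicle fusion with the Golgi, were 1.31- and 1.28-fold higher in the authors' deposited table and stayed higher on library totals. AN10724, with 2022 and 2023 against 2053 and 2088, differed by little and did not pass in the authors' deposited table (q = 0.6314). AN5868, named for ceramide and sterol transport, had 1103 and 1133 against 1120 and 1066, with overlapping strains (q = 0.7334 in the authors' deposited table).

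The secretory traffic genes were well expressed. Their median level over both strains was 1165 normalized reads per kb of gene length, introns included, against 469 over the tested genes with AN identifiers. Of the 50 genes, 47 lay above that median and 24 in the top 25%. The highest in each role group were AN10033 at 8466 per kb in the deletion and 6405 in the parental strain, AN0347 at 7334 and 5282, sar1 at 5476 and 5194, AN5195 at 4428 and 3875, AN0229 at 3227 and 2878, and AN1973 at 3145 and 2115. Of these 6, sar1 and AN0229 differed least between strains. The median gene length was 1738 bp, near the 1697 bp of those tested genes, and removing a trend on gene length left the median log2 change at 0.33 over the 51 genes.

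Pathways next to secretory traffic were counted in the same way from lists of function words, leaving out the genes already described. Of 14 genes matched by words for ER entry, the passage of new proteins into the ER, 12 rose (85.7%) and 2 did not pass. The median log2 change was 0.84, and 0.63 on library totals, where 12 were higher and 2 lower. Words alone also placed sec53 (AN10710) on this list, and its part in ER entry was not checked. Of 39 genes of N-glycosylation and GPI anchors, 20 rose (51.3%), 10 fell (25.6%) and the median was 0.12. Of 34 endocytosis genes 20 rose (58.8%) and 7 fell (20.6%), with a median of 0.22. Of 48 genes of vacuole and endosome sorting 30 rose (62.5%) and 13 fell (27.1%), with a median of 0.26. The lists of endocytosis and of vacuole and endosome sorting share AN10804, AN12171, AN3003, AN3643 and AN7682. Over all genes tested, 36.3% rose and 35.9% fell. On library totals the medians of the last 3 lists were -0.09, 0.00 and 0.04. On that scaling 41.0%, 29.4% and 43.8% of their genes were higher and 46.2%, 41.2% and 35.4% lower. The shares over all genes in that fit were 32.8% and 53.5%. The median of the secretory traffic genes, 0.36, thus lay below that of ER entry and above those of the other 3 lists, and the differences between lists were not tested.

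The rule by function words misses some known parts of the machinery, because their text uses other words. A list of 23 coat, tether and SNARE genes outside the rule was written after values had been seen. Of these genes 19 rose (82.6%) and 3 fell (13.0%) in the authors' deposited table, against 36.3% and 35.9% of all genes tested. The median log2 change was 0.44, or 0.22 on library totals. The gene sec13 (AN4317), the partner of sec31 in the outer COPII layer, had 7308 and 6967 normalized reads in the deletion libraries against 3072 and 3158. It was 2.29-fold higher in the authors' deposited table (q = 1.48e-122), a larger rise than that of any of the 50 genes. AN9526, a t-SNARE, was 2.03-fold higher, and AN8828 was reduced 1.77-fold in the authors' deposited table. The words of that list do not catch AN8769, a putative homolog of synaptobrevin, a vesicle SNARE, which was reduced 1.19-fold in the authors' deposited table (q = 1.41e-12) and is not in the counts.

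**Figure D4:**
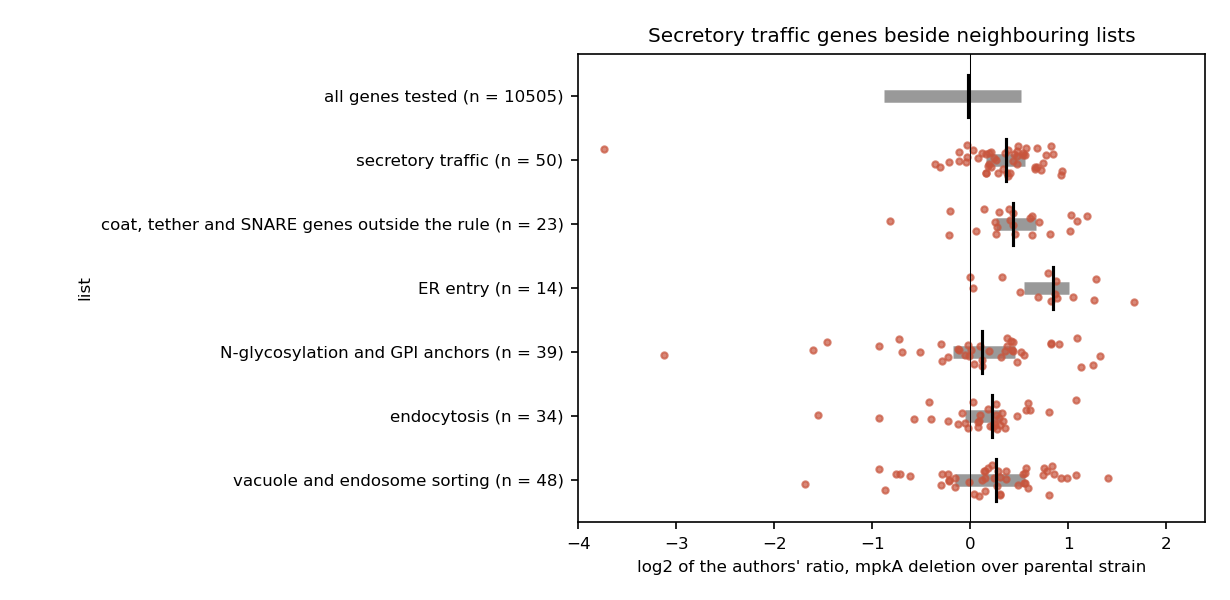
The log2 of the authors' ratio, deletion over parental strain, for the 50 secretory traffic genes, the neighbouring lists and all genes tested. Points are genes, grey bars span the middle 50% of each list and black lines are medians. The secretory traffic genes lie closely around a median of 0.36 with AN8768 alone at -3.73, and all genes tested spread more widely around -0.02.

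AN7090, the transposon-related reading frame, had 81 and 101 reads in the deletion libraries, against 365 and 338 in the parental ones, or 90.1 and 113 against 318 and 312 normalized reads. The strains did not overlap, and it was reduced 3.10-fold in the authors' deposited table (q = 5.04e-23). With AN7090 the counts over all 51 genes of the rule are 39 higher, 5 lower and 7 not passing, with a median log2 change of 0.35. A repeated element can share reads with near copies, so its count is uncertain.

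Because the libraries of a strain may be technical repeats, the reads were also tested with an assumed coefficient of variation of 0.2 between cultures. Under that assumption edgeR called 8 of the 50 genes, against 43.9% of all genes in the fit. These were AN0922, AN2480, AN1154, AN4495, AN11226, sec31 and AN4886 as higher, and AN8768 as lower. Of all 9338 genes in the fit, 1601 were called higher and 2494 lower. The share of the 50 genes called higher, 7 of them, was thus not above that of all genes under this assumption. For the other 42 genes the changes were smaller than this assumed spread could show with 2 libraries per strain, and an exact permutation test of 2 against 2 cannot go below p = 0.333.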

How the data were processed

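Per the labels' protocols, RNA came from a Trizol extraction and a TruSeq kit was used, of a version known not to mark the strand. Bowtie2, HTSeq and DESeq stand in the submitters' processing notes, and their versions, the build and the counting settings were not given in the sources used here. In all, 3 tables were deposited by the authors, each of 10930 genes with positions but no chromosome names. The signal values the authors deposited are means over 2 libraries of reads divided by size factors. The ratio in the authors' deposited table is parental over deletion strain and was inverted, and a positive log2 change thus stands for a higher level in the deletion strain. P-values and q-values are the authors' own, per the file headers. Columns belonging to no sample of the series, 2 in all, were not used.

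Each strain's mean stands in 2 deposited tables with different size factors, and both were solved for whole read counts in each library. The solution was unique within rounding for 100% of genes, with largest deviations from whole reads of 0.101 in the deletion and 0.155 in the parental strain. The recovered libraries carry no replicate number. The main result is the authors' comparison, and the recovered counts entered edgeR 4.0.16 in R 4.3.3 (quasi-likelihood, TMM, filterByExpr, Benjamini-Hochberg adjustment), DESeq2 1.42.0 and the alternatives given in the closing section. Both the recovery and edgeR were tested on simulated data. The standard error is the log2 change divided by the square root of F, and a call needs a q-value or adjusted p under 0.05. Where 1 gene's text matched several roles, the first in a fixed order of role words was used. Symbols came from RefSeq (assembly ASM1142v1, another build than the files), where 48 of 51 genes matched by locus tag. No RefSeq coordinates were used.

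Genes named were those with at least a 1.5-fold called change, coat and exocyst subunits, and the highest per kb in each role group, and further members are named to account for every gene. The members, the lists and the rule for names were chosen with earlier results of these data known.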

Additional observations from a re-analysis of the deposited data

How the results depend on the processing

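No paired analysis was possible because the deposited columns are means and the recovered libraries carry no replicate numbers. Over the 51 genes of the rule, the median log2 change was 0.35 and ranged from 0.31 (without parental replicate b) to 0.36 when each library was left out in turn. With library totals it was 0.14, with 27 genes called higher (52.9%) and 13 lower (25.5%), against 32.8% and 53.5% of all genes. With a coefficient of variation of 0.2, edgeR called 9 of these genes, 7 higher and 2 lower. Of all genes in the fit it called 4095 (43.9%), 1601 higher and 2494 lower. Asking for at least 1.5-fold left 13 genes, 11 higher and 2 lower. Of all genes tested it left 4623, with 18.6% higher and 25.4% lower. On library totals the medians of the Rab group (-0.0247) and the exocyst group (-0.0494) reversed. So did AN0229 (-0.0494), AN0411 (-0.14), AN0462 (-0.054), AN1002 (-0.0908), AN1210 (-0.00051), AN1845 (-0.0283), AN3692 (-0.0538), AN5195 (-0.022) and AN6493 (-0.00589). That scaling shifts all log2 changes by about -0.20 against TMM. Of 39 named genes, 25 kept direction and call there, 9 lost the call, 4 became called and AN1002 was called in the opposite direction, while 38 kept both under edgeR with TMM. Counts of the 51 genes under DESeq2, DESeq2 size factors and no filter on low counts stayed within 1.5 times the main count. Depth did not limit these genes, whereas 2 libraries per strain, possibly technical, do.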

Other observations

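The neighbours of AN8768 in the files were looked at after its value had been seen. AN8769, annotated as a putative synaptobrevin homolog, the vesicle SNARE of exocytosis, had 12615 and 12276 normalized reads in the deletion libraries against 14680 and 14995. It was reduced 1.19-fold in the authors' deposited table (q = 1.41e-12), with no overlap between strains. AN8767, on the other side, had 270 and 247 normalized reads against 629 and 575 and was reduced 2.33-fold in the authors' deposited table (q = 9.30e-27). Both changes were smaller than the 13.3-fold difference of AN8768.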
